A study of Mus musculus with 20 samples.

Results

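*Cd97*, *Emr1* and *Emr4* encode the myeloid members of the adhesion G protein-coupled receptor (GPCR) family with epidermal growth factor (EGF)-like repeats, and they were taken as 3 of the 37620 genes of the count table, together with 225 of its 554616 splice junctions. *Cd97* was chosen by the change of its exons in these mice, and *Emr1* and *Emr4* were added as its relatives, with results of these data known. All 20 libraries came from total bone marrow of lethally irradiated wild-type mice, a cross of C57BL/6 and 129S4Sv/Jae, that had received marrow pooled from 2 to 3 donors carrying rtTA and a doxycycline-inducible U2AF1 transgene. The transgene was either U2AF1(WT) or U2AF1(S34F), a myelodysplasia mutant of the factor that reads the AG at the 3′ end of introns. All mice received chow with 625 ppm doxycycline for 7 days to induce the transgene. Sudemycin D6, a compound that binds the SF3B1 complex, was infused at 50 mg/kg a day over 4 h, on 5 days, and marrow was collected 18 h after the final infusion; controls received the hydroxypropyl-β-cyclodextrin vehicle. Donors were 8 to 12 weeks old and recipients 6 to 12 weeks old, and marrow had engrafted for over 6 weeks. Below, Veh_WT, Sud_WT, Veh_MUT and Sud_MUT name the vehicle (Veh) and drug (Sud) groups with U2AF1(WT) (WT) or U2AF1(S34F) (MUT), with 5 mice in each.

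Total gene counts ran from 41145892 to 62138138 reads per mouse and junction counts from 34384214 to 64813149. The libraries were rich in transcripts of neutrophils, whose 12 markers summed to between 61892 and 143860 CPM. CPM are reads scaled to the library total of the genes that passed the filter, adjusted by the TMM normalization of edgeR. Donor cells and remaining host cells were measured together. The count of *U2af1*, the mouse gene, was higher in Veh_MUT than in Veh_WT mice by 0.48 ± 0.07 on the log2 scale (SE, n = 5 against 5, edgeR FDR = 0.000294), and no separate count of the transgene was used here. *Xist*, a transcript of the inactive X chromosome, had 39145 to 78640 reads in every U2AF1(WT) mouse and 1 to 8 in every U2AF1(S34F) mouse. The study matched donors and recipients by sex. Genotype and the sex of the mice therefore cannot be told apart in any comparison between WT and MUT, for genes on any chromosome.

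Adhesion GPCRs carry a long extracellular part that is cut from the membrane-spanning part and stays bound to it. CD97 is found on most leukocytes and binds CD55 (decay-accelerating factor) through its first EGF-like repeats, and Thy1 and integrins through other parts. Emr1 is the F4/80 antigen of mouse macrophages, also found on monocytes and eosinophils, and Emr4 is a related receptor of myeloid cells. The number of EGF-like repeats in CD97 is set by splicing.

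*Cd97* (ENSMUSG00000002885, mm9 chromosome 8, 86247150 to 86265225, minus strand) has 8 annotated transcripts, and its longest has 20 exons. Exons 5 and 6 of that transcript were the exons that vary. Exon 5 (86255802 to 86255936, 135 bases, 45 codons) and exon 6 (86254010 to 86254156, 147 bases, 49 codons) keep the reading frame, so that both together add 94 codons. Their sequences are given because the forms that differed between the mice are made by them. Capitals mark the cysteine codons in the annotated frame, since an EGF-like repeat is built on conserved cysteines.
Cd97 exon 5, chr8:86255802-86255936, minus strand: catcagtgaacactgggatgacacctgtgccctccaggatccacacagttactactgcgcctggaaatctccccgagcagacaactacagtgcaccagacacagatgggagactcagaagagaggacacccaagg
Cd97 exon 6, chr8:86254010-86254156, minus strand: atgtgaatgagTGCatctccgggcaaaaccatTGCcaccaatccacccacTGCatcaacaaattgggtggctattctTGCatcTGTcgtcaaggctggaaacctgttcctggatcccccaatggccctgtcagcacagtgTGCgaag

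The exons were not alike. Exon 6 holds 6 cysteine codons, as do exons 3, 4 and 7, and exon 5 holds 0. Exons 6 and 7 were identical at 67.3% of aligned bases, and exon 5 was identical to exons 4, 6 and 7 at 50.9% to 52.8%. Exon 4, which holds the cysteines, was about as near to exons 6 and 7, at 51.8% and 52.8%. Base identity therefore does not set exon 5 apart from a repeat. By its cysteine codons, exon 6 is the variable EGF-like repeat of *Cd97*, while exon 5 is an insert between repeats that lacks their cysteines. Of these variable exons, the name EGF-domain exon holds for exon 6 alone.

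The acceptors, the last 20 intron bases and first 3 exon bases, are shown because U2AF1 binds there. Capitals mark the base at position −3 of the intron and the AG that follows it. The S34F mutant is known to favour some bases at position −3 over others.
Cd97 exon 4, chr8:86257463-86257485, minus strand: tgacccctgttttgttgTAGaca
Cd97 exon 5, chr8:86255934-86255956, minus strand: agtgtctgtcctcttccCAGcat
Cd97 exon 5, second acceptor, chr8:86255928-86255950, minus strand: tgtcctcttcccagcatCAGtga
Cd97 exon 6, chr8:86254154-86254176, minus strand: ccctttcgttttgttccCAGatg
Cd97 exon 7, chr8:86253422-86253444, minus strand: ccccttccttatgtctgCAGatg
Emr1 exon 3, chr17:57541308-57541330, plus strand: cttctctgcatgctaccTAGgtg
Emr1 exon 6, chr17:57546237-57546259, plus strand: ttttatccccaactcctCAGatg

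Exons 5, 6 and 7 of *Cd97* all have C at −3, and exon 3 of *Emr1* has T. Among 4471 acceptors of single exons found skipped on chromosomes 8 and 17, 65.0% have C, 29.2% T and 5.61% A at that base.

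The *Cd97* transcripts with both variable exons had the lowest mean share of the 3 main forms in Veh_WT mice and a mean share close to that of transcripts with neither exon in Sud_MUT mice. The form of a transcript was read from the 4 junctions that exclude each other, with 1372 to 2182 reads per mouse. Exon 4 joined to exon 7 marks transcripts with neither exon (3 EGF-like repeats), exon 4 joined to exon 6 those with exon 6 alone (4 repeats), exon 5 joined to exon 6 those with both (4 repeats and the insert), and exon 5 joined to exon 7 those with exon 5 alone. These shares are a description without a test, since the gene was chosen by them.

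Transcripts with both exons made up 14.1, 18.6, 11.2, 10.1 and 13.5% in Veh_WT mice 1 to 5. They made up 25.1, 28.8, 29.3, 22.4 and 17.1% in Sud_WT mice 6, 8, 9, 10 and 12. They made up 26.8, 25.5, 28.0, 36.5 and 37.4% in Veh_MUT mice 1, 3, 5, 7 and 11, and 35.6, 35.2, 42.7, 34.4 and 41.0% in Sud_MUT mice 2, 6, 9, 10 and 12. All MUT mice lay above all WT mice given the same infusion. Under each genotype the drug group had the higher mean but overlapped its vehicle group, through Veh_WT mouse 2 and Sud_WT mouse 12 in WT, and through Veh_MUT mice 7 and 11 in MUT. The group means were 13.5% ± 3.31 in Veh_WT, 24.5% ± 5.06 in Sud_WT, 30.9% ± 5.66 in Veh_MUT and 37.8% ± 3.80 in Sud_MUT (SD, n = 5).

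Transcripts with neither exon took the opposite order. Their mean share was 59.0% ± 5.67 in Veh_WT, 43.8% ± 6.17 in Sud_WT, 42.3% ± 6.71 in Veh_MUT and 35.0% ± 3.85 in Sud_MUT (SD, n = 5). All Veh_WT mice lay between 49.5% and 64.6%, above the Veh_MUT mice at 34.2% to 47.5%, and Sud_WT mice overlapped both Veh_MUT and Sud_MUT mice. Within Sud_MUT mice 2, 6 and 10 the share with neither exon was above the share with both, and within mice 9 and 12 it was below. The means of transcripts with exon 6 alone were nearer to each other, at 27.2% ± 2.57, 31.1% ± 2.28, 26.4% ± 1.42 and 26.8% ± 1.96 (SD, n = 5) in the same order. Exon 5 without exon 6 had 145 reads over all 20 mice, at most 0.858% of a mouse, so exon 5 was seen almost entirely in transcripts that also held exon 6.

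**Figure D1:**
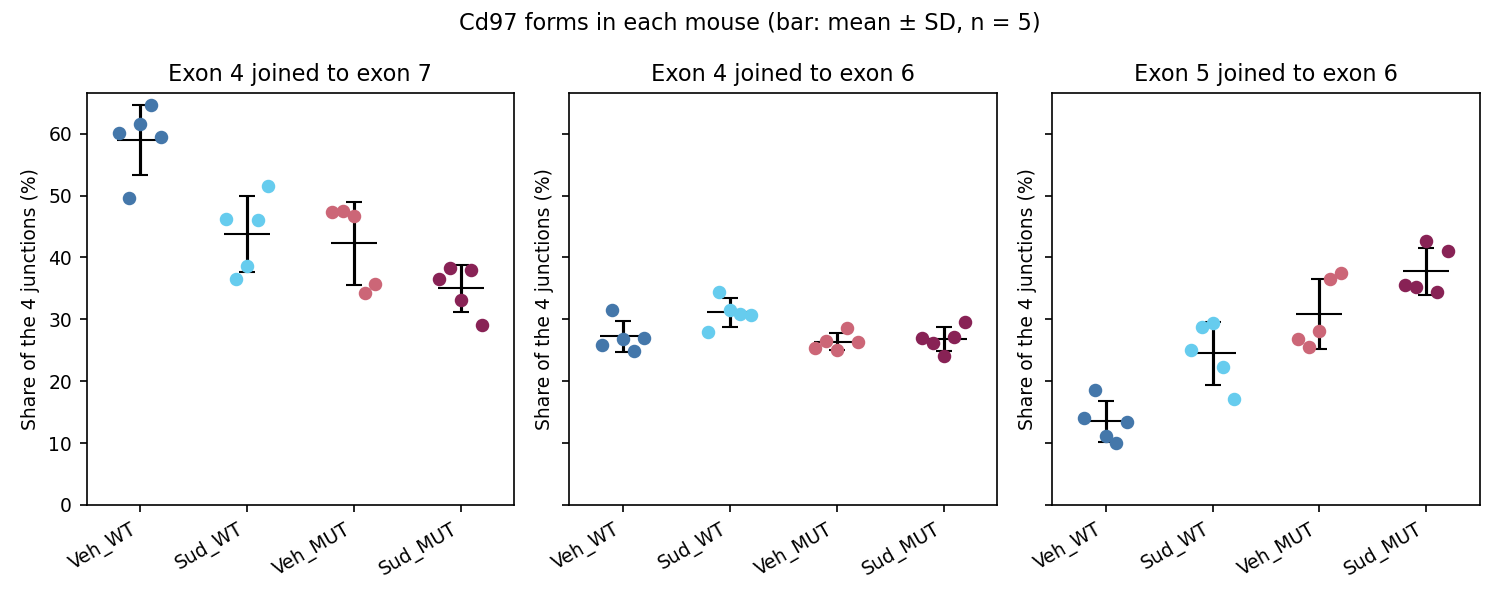
Share (%) of the 4 mutually exclusive junctions of *Cd97* in each of the 20 mice, for exon 4 joined to exon 7 (neither variable exon), exon 4 joined to exon 6 (exon 6 alone) and exon 5 joined to exon 6 (both); points are mice and bars the mean ± SD (n = 5). The share with both exons runs from a mean of 13.5% in Veh_WT to 37.8% in Sud_MUT mice, while the share with exon 6 alone stays between means of 26.4% and 31.1%.

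Counted by exon, exon 5 was in 13.7% of transcripts in Veh_WT and 31.3% in Veh_MUT mice, a difference of 17.6 percentage points ± 2.94 (SE), and in 25.1% in Sud_WT and 38.2% in Sud_MUT mice, 13.2 points apart ± 2.74. The drug went with a difference of 11.4 points ± 2.65 in WT and 6.90 points ± 3.01 in MUT. Exon 6 was in 40.7%, 55.6%, 57.3% and 64.6% of transcripts in Veh_WT, Sud_WT, Veh_MUT and Sud_MUT mice. For exon 6 the genotype difference under vehicle (16.5 points ± 3.92) and the drug difference in WT (14.9 points ± 3.80) were of similar size. The splice fraction Ψ of exon 5, from its 2 inclusion junctions and the skipping junction to exon 6, was 0.358 ± 0.0302 in Veh_WT, 0.450 ± 0.0359 in Sud_WT, 0.577 ± 0.0300 in Veh_MUT and 0.611 ± 0.0359 in Sud_MUT (SD, n = 5), and on this scale the Veh_WT and Sud_WT mice did not overlap. Among all splice events tested, 3.21% were called between Veh_WT and Veh_MUT and 1.12% between Veh_WT and Sud_WT (FDR under 10% and a change in Ψ over 1%). These shares do not say how unusual the change of exons 5 and 6 is, since the gene was chosen by it.

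Exon 5 was also entered at a second acceptor, 6 bases further into the exon, which the annotation lacks and which keeps the frame. It took 1107 reads over the 20 mice, against 11139 at the annotated acceptor. Its share of the reads entering exon 5 was 9.40% ± 4.93 in Veh_WT, 8.56% ± 2.46 in Sud_WT, 9.66% ± 2.37 in Veh_MUT and 8.65% ± 1.83 in Sud_MUT (SD, n = 5). Both acceptors have C at −3, and the groups overlapped throughout.

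Besides the events of exons 5 and 6, 9 to 11 further *Cd97* events were tested in each comparison, and 0 were called. Some of them include exon 4 and count its junction to exon 6 or exon 7. Those junctions also define the forms above, so these events are not independent of how the gene was chosen. The largest change in Ψ among the further events was 0.0253. The smallest FDR was 0.0341, between Veh_WT and Sud_MUT, for a change of under 1%. That event counts the junction from exon 4 to exon 7. The shorter form of exon 2, which ends 6 bases earlier, made up 7.56% ± 0.767 in Veh_WT and 10.1% ± 0.343 in Sud_MUT mice (SD, n = 5) and was not called.

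The amount of *Cd97* was not called different between any groups. *Cd97* had 348, 399.6, 389.9, 356 and 316 CPM in Veh_WT mice, and 368, 369, 517, 373 and 345 CPM in Sud_WT mice. It had 339.8, 307, 382, 361 and 373 CPM in Veh_MUT mice, and 348, 481, 348, 360.3 and 455 CPM in Sud_MUT mice. The 4 groups overlapped, with Sud_WT mouse 9 and Sud_MUT mice 6 and 12 above the rest. The log2 change was −0.05 ± 0.09 between Veh_WT and Veh_MUT (SE, edgeR FDR = 0.72), 0.10 ± 0.12 between Veh_WT and Sud_WT (FDR = 0.785), 0.17 ± 0.11 between Veh_MUT and Sud_MUT (FDR = 0.369), 0.01 ± 0.13 between Sud_WT and Sud_MUT (FDR = 0.958) and 0.14 ± 0.11 between Veh_WT and Sud_MUT (FDR = 0.325). No test called *Cd97*, in comparisons that called 39.5%, 3.07%, 10.8%, 36.8% and 50.2% of genes in that order. *Ddx39* overlaps the 3′ part of *Cd97* on the other strand, and whether the gene counts used strand is not given in the sources used here.

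Per kilobase of exon, *Cd97* was the highest of the 31 adhesion GPCR genes measured, at a mean of 100.3 CPM per kb over the 20 mice. *Emr1* was the third at 19.6 CPM per kb and *Emr4* the fourth at 10.1, with *Gpr97*, a receptor of neutrophils, between *Cd97* and *Emr1* at 61.9. On this scale the order of groups for *Cd97* was Sud_MUT (106), Sud_WT (105), Veh_WT (96.4) and Veh_MUT (93.8), and no neighbours in it differed beyond their spread. The order for *Emr1* was Veh_WT (23.6), Sud_MUT (19.1), Sud_WT (19.0) and Veh_MUT (16.7), in which Veh_WT alone lay apart from another group, above both Sud_WT and Veh_MUT. The order for *Emr4* was Sud_WT (16.4), Veh_WT (11.7), Sud_MUT (7.42) and Veh_MUT (4.71), and each pair of neighbours overlapped.

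**Figure D2:**
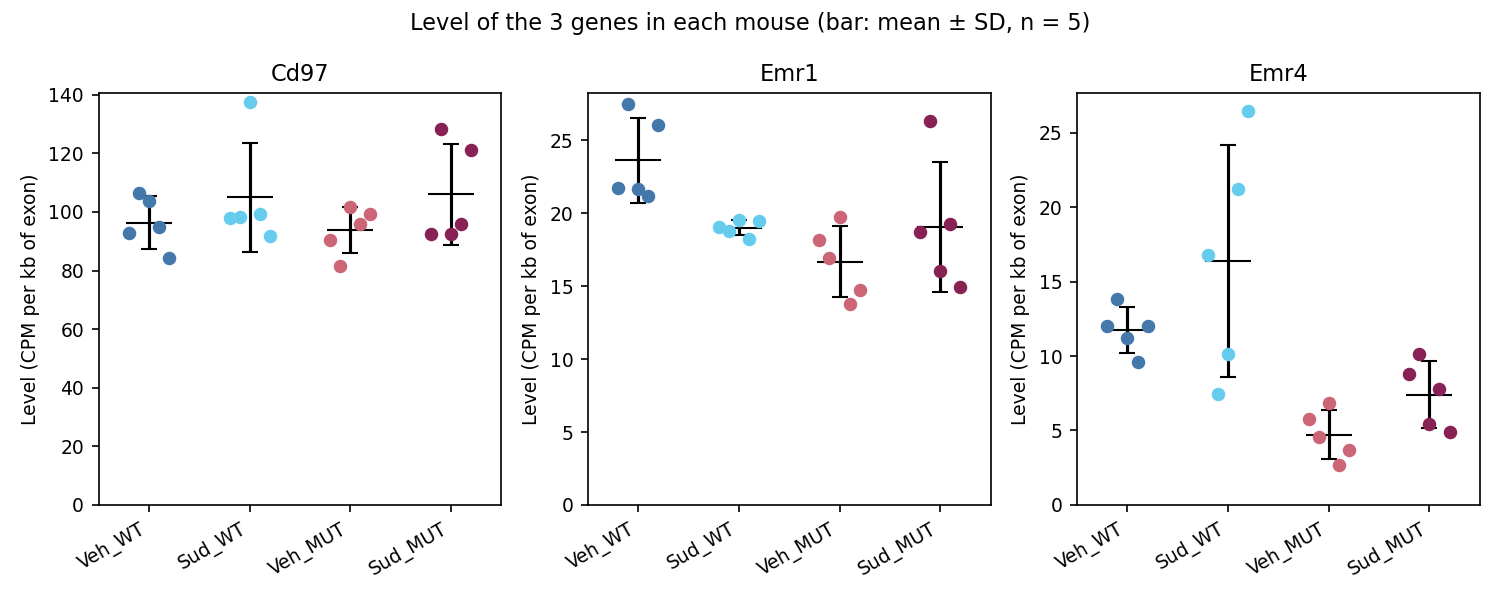
Level (CPM per kb of exon, axes from 0) of *Cd97*, *Emr1* and *Emr4* in each of the 20 mice; points are mice and bars the mean ± SD (n = 5). *Cd97* overlaps in all 4 groups, Veh_WT mice lie above Veh_MUT mice for *Emr1* and *Emr4*, and Sud_WT mice spread widest for *Emr4*.

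*Emr4* (ENSMUSG00000032915, chromosome 17, 55889249 to 55992927, plus strand, 1 annotated transcript) fell in MUT mice under both infusions. It had 41.9, 48.2, 39.1, 33.4 and 41.9 CPM in Veh_WT mice and 20.2, 16.0, 23.8, 9.34 and 12.8 CPM in Veh_MUT mice, with no overlap. In bulk marrow, fewer cells of a type and less RNA per cell cannot be told apart. The log2 change was −1.33 ± 0.22 (SE, edgeR FDR = 0.00139), a mean level 0.402 times that of Veh_WT. Sud_WT mice had 58.6, 26.0, 35.3, 73.9 and 92.3 CPM, and Sud_MUT mice had 30.7, 35.5, 18.9, 27.2 and 17.1 CPM. These groups overlapped through Sud_WT mice 8 and 9, and *Emr4* fell by 1.15 ± 0.33 on the log2 scale (SE, edgeR FDR = 0.0219). It also fell between Veh_WT and Sud_MUT, by 0.66 ± 0.18 (SE, FDR = 0.0124). With the drug the change was 0.47 ± 0.30 in WT (FDR = 0.546) and 0.65 ± 0.27 in MUT (FDR = 0.187), and neither was called.

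*Emr1* (ENSMUSG00000004730, chromosome 17, 57498109 to 57622952, plus strand, 5 annotated transcripts) was highest in Veh_WT mice. It had 70.6, 89.3, 70.4, 68.7 and 84.4 CPM in Veh_WT mice and 59.0, 54.8, 64.0, 44.7 and 47.8 CPM in Veh_MUT mice, with no overlap, and fell by 0.52 ± 0.11 on the log2 scale (SE, edgeR FDR = 0.00362). Sud_WT mice had 61.9, 60.9, 63.3, 59.2 and 63.1 CPM, all below the Veh_WT mice, and the drug change in WT was −0.33 ± 0.09 (SE, FDR = 0.0871). Sud_MUT mice had 60.7, 85.3, 52.1, 62.5 and 48.5 CPM and overlapped each other group. *Emr1* also fell between Veh_WT and Sud_MUT by 0.31 ± 0.13 (SE, FDR = 0.0782). The latter 2 calls sat near the threshold, and the first was lost without any of 8 of the 10 mice and the second without any of 6 of the 10. No change was called between Veh_MUT and Sud_MUT (0.19 ± 0.15, FDR = 0.486) or between Sud_WT and Sud_MUT (−0.0004 ± 0.13, FDR = 0.999).

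The drug change of *Emr1* was −0.33 in WT and 0.19 in MUT, 0.51 ± 0.18 apart on the log2 scale. The test of that difference over all 20 mice gave an unadjusted p of 0.0087 and an edgeR FDR of 0.461, and it was not called. The difference was 0.05 ± 0.16 for *Cd97* (FDR = 0.972) and 0.17 ± 0.43 for *Emr4* (FDR = 0.966). This test called 0.013% of genes (2 of 15392 by edgeR, with 1144 at an unadjusted p under 0.05, and 116 by DESeq2).

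A stretch of *Emr1* that encodes 3 of its 7 EGF-like repeats was skipped more often in Sud_MUT than in Veh_WT or Sud_WT mice. Its change with the drug in MUT was not called. Exons 3 to 9 hold 6 cysteine codons each, and exons 3, 4 and 5 together (423 bases, 141 codons) are missing from transcripts that join exon 2 to exon 6, an annotated junction. The share of reads leaving exon 2 for exon 6 was 6.86, 16.6, 10.2, 14.8 and 9.36% in Veh_WT mice. It was 13.5, 18.5, 13.1, 13.6 and 15.7% in Sud_WT mice. It was 16.4, 17.5, 16.7, 17.4 and 19.7% in Veh_MUT mice and 21.4, 20.6, 23.8, 20.4 and 22.4% in Sud_MUT mice. All Sud_MUT mice lay above all other mice, the Veh_WT mice were the most spread, and 21 to 96 reads per mouse crossed the skipping junction.

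Inclusion of the 3 exons (Ψ) was 0.907 ± 0.0337 in Veh_WT, 0.880 ± 0.0207 in Sud_WT, 0.836 ± 0.00697 in Veh_MUT and 0.801 ± 0.0117 in Sud_MUT mice (SD, n = 5). It fell by 0.105 between Veh_WT and Sud_MUT (edgeR FDR = 0.000676) and by 0.0785 between Sud_WT and Sud_MUT (FDR = 0.0728). The call between Sud_WT and Sud_MUT was lost without any of 7 of the 10 mice, and with the estimated dispersion no event of the members was called in either comparison. The change was −0.0709 between Veh_WT and Veh_MUT (FDR = 0.124), where those groups did not overlap, −0.0268 between Veh_WT and Sud_WT (FDR = 0.707) and −0.0344 between Veh_MUT and Sud_MUT (FDR = 0.664). Exon 3 counted on its own against the same skipping junction fell by 0.152 between Veh_WT and Sud_MUT (FDR = 0.00953), an event that shares its reads with the former. These were 1 of 19 and 2 of 14 *Emr1* events tested, where 3.3% of all events were called between Sud_WT and Sud_MUT and 6.08% between Veh_WT and Sud_MUT. In the other 3 comparisons 0 of 15 to 18 *Emr1* events were called (1.53% of all events between Veh_MUT and Sud_MUT). Of *Emr4*, 2 to 4 events had the reads to be tested, and 0 were called. In *Cd97* both variable exons were more included, and in *Emr1* the 3 exons were less included, as the mean passed from Veh_WT to Sud_MUT.

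**Figure D3:**
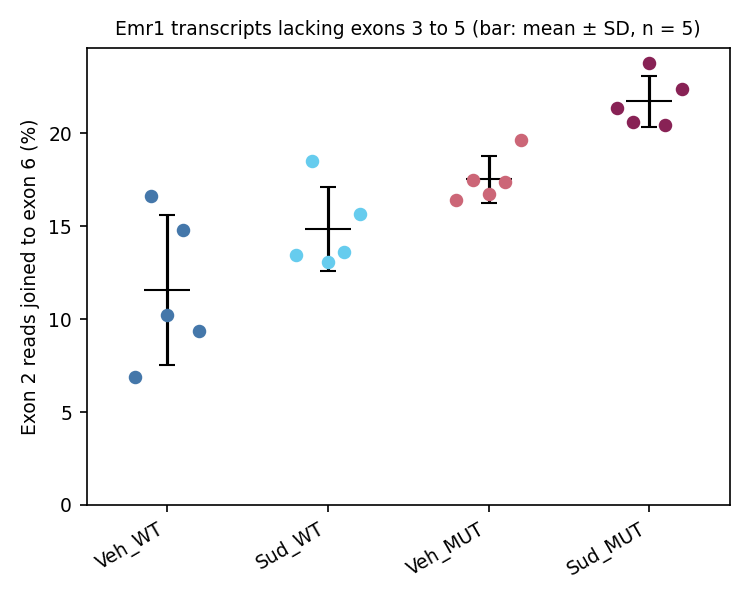
Share (%) of *Emr1* reads leaving exon 2 that join exon 6, and so lack exons 3 to 5, in each of the 20 mice; points are mice and bars the mean ± SD (n = 5). Sud_MUT mice at 20.4% to 23.8% lie above all others.

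*Emr4* fell in MUT mice together with several markers of non-classical monocytes. Of 8 markers of non-classical monocytes, the patrolling blood monocytes, 5 fell and 1 rose between Veh_WT and Veh_MUT, and 5 fell and 0 rose between Sud_WT and Sud_MUT, where 39.5% and 36.8% of all genes were called. *Nr4a1*, the transcription factor they depend on, fell by 2.86 ± 0.22 under vehicle and fell by 2.33 ± 0.19 under the drug on the log2 scale (SE). *Ace*, angiotensin-converting enzyme, fell by 1.57 ± 0.36 and 1.39 ± 0.30, and *Cd300e* by 1.33 ± 0.18 and 1.29 ± 0.30. *Treml4* fell by 0.30 ± 0.10 and 0.59 ± 0.13. *Cx3cr1*, the fractalkine receptor, fell by 0.95 ± 0.20 under vehicle and was −0.05 ± 0.22 under the drug, while *Itgax* rose by 0.46 ± 0.14 under vehicle and *Spn* fell by 0.18 ± 0.07 under the drug. The 8 markers summed to 604 to 743 CPM in Veh_WT and 583 to 819 CPM in Sud_WT mice, against 439 to 521 CPM in Veh_MUT and 424 to 519 CPM in Sud_MUT mice, and none was at 0. The sums differed under vehicle mostly through *Nr4a1* (means of 135 CPM in Veh_WT and 18.8 CPM in Veh_MUT). *Spn*, the largest part of the sum, had means of 321 and 326 CPM in these groups. The median change of the 8 was −0.63 and −0.45, beside 0.00 and −0.03 over all genes tested. Of 12 neutrophil markers, 4 rose and 0 fell between Veh_WT and Veh_MUT, no larger a share than the 39.5% of all genes called. Their sum was 66433 to 75108 CPM in Veh_WT and 88428 to 143860 CPM in Veh_MUT mice, mostly through *S100a8* (means of 10888 and 26163 CPM) and *S100a9* (22270.0 and 38693 CPM), the subunits of calprotectin. The part of either list in the change of *Emr4* was not tested.

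**Figure D4:**
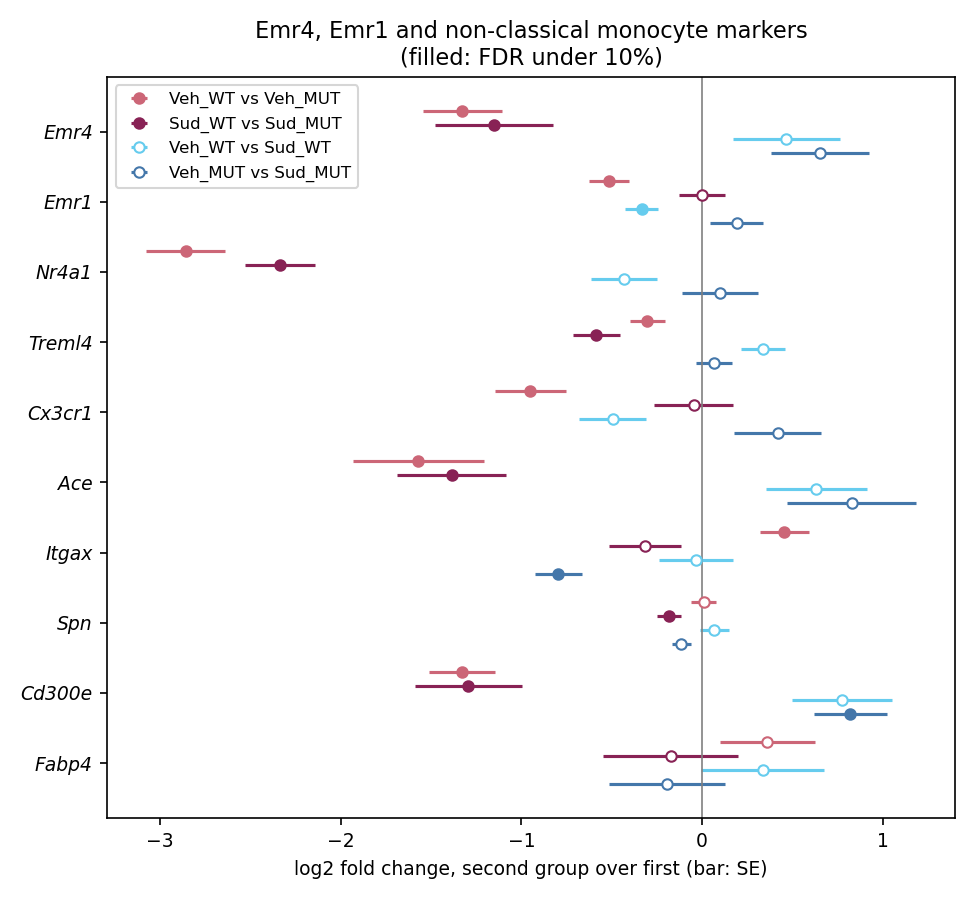
Log2 fold change (second group over first, bars SE) of *Emr4*, *Emr1* and 8 markers of non-classical monocytes in 4 comparisons; filled points have an edgeR FDR under 10%. *Nr4a1*, *Ace*, *Cd300e* and *Emr4* lie left of 0 in both genotype comparisons, with *Nr4a1* lowest at −2.86 and −2.33.

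Of 9 markers of classical monocytes, 3 fell and 0 rose between Veh_WT and Veh_MUT, a share below the 39.5% of all genes called. They were *Csf1r*, the receptor for macrophage growth factor (−0.85 ± 0.13), *Cd14*, the co-receptor for lipopolysaccharide (FDR = 0.00135), and *Klf4* (−0.87 ± 0.21). Between Sud_WT and Sud_MUT, where *Emr4* also fell, 3 rose and 1 fell (36.8% of all genes were called), with *Ccr2*, the receptor by which monocytes leave marrow, up by 1.36 ± 0.14. Their sum was 2115 to 2941 CPM in Veh_WT, 1962 to 2246 CPM in Sud_WT, 1629 to 2456 CPM in Veh_MUT and 2239 to 3038 CPM in Sud_MUT mice. Of 14 markers of marrow macrophages, 4 rose (*Vcam1*, *Spic*, *Slc40a1* and *Cd5l*) and 0 fell between Veh_WT and Veh_MUT, a share below the 39.5% of all genes, and 10 were not called. They summed to 471 to 493 CPM in Veh_WT and 512 to 678 CPM in Veh_MUT mice. Of 8 eosinophil markers, 3 fell between Veh_WT and Veh_MUT and 4 between Veh_WT and Sud_WT, where 39.5% and 3.07% of all genes were called. The former share is near that of all genes. *Ear1*, a ribonuclease whose reads near-identical copies may share, fell by 0.73 ± 0.16 and 1.02 ± 0.20 in these comparisons. Eosinophil markers also fell where *Emr1* was not called, 3 between Veh_MUT and Sud_MUT and 5 between Sud_WT and Sud_MUT. Of all genes, 10.8% and 36.8% were called there. Between Veh_WT and Sud_MUT 7 fell, where 50.2% of all genes were called. The eosinophil sum was 293 to 473 CPM in Veh_WT, 241 to 335 CPM in Sud_WT, 257 to 351 CPM in Veh_MUT and 157 to 227 CPM in Sud_MUT mice. No marker of these lists was at 0, and their part in the change of *Emr1* was not tested.

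The genes whose log2 CPM followed *Emr4* most closely over the 20 mice were *Ace* (Pearson r = 0.964, and 0.894 after subtracting group means), *Epha4* (0.956 and 0.919) and *Eno3* (0.954 and 0.952). For *Emr1* they were *Prcp* (0.892 and 0.835), *Cacna1d* (0.882 and 0.804) and *Ptpro* (0.875 and 0.839). For *Cd97* they were *Clptm1* (0.829 and 0.798), *Lyn*, a kinase of myeloid cells (0.794 and 0.753), and *Eif4ebp1* (0.780 and 0.756). The members followed each other less, at 0.639 between *Emr1* and *Emr4* (0.609 after subtracting group means), 0.126 between *Cd97* and *Emr1* (0.188) and 0.0542 between *Cd97* and *Emr4* (−0.181, so that the sign turned). These values describe 20 libraries of 4 groups, picked as the highest of 15392 genes.

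Of the other 28 adhesion GPCR genes, most were low in marrow. With the members, 17 of 31 reached a mean of 1 CPM, and *Gpr144* had no read. Between Veh_WT and Veh_MUT 1 of 17 tested rose and 4 fell, and between Sud_WT and Sud_MUT 1 of 18 rose and 2 fell. These shares lie below the 39.5% and 36.8% of all genes called. Those that fell included *Celsr3*, a large cadherin-type receptor, which fell by 0.69 ± 0.17 (SE) on the log2 scale under vehicle and fell by 0.68 ± 0.11 under the drug. *Celsr2* fell by 1.13 ± 0.28 under vehicle, with −0.23 ± 0.31 under the drug. *Eltd1*, found on endothelial cells, rose by 0.37 ± 0.14 and 0.33 ± 0.12. *Lphn3*, named after its values were seen because its mean was under 1 CPM, also fell under vehicle.

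With the drug, 1 of 17 rose and 1 fell in WT and 1 of 18 rose and 2 fell in MUT, where 3.07% and 10.8% of all genes were called. *Gpr126*, a receptor for collagen IV, rose by 0.90 ± 0.16 in WT (FDR = 0.0136) and by 0.90 ± 0.14 in MUT (FDR = 0.00397), from 3.78 CPM ± 0.824 in Veh_WT to 7.18 CPM ± 0.644 in Sud_WT mice (SD, n = 5). *Gpr56*, found on haematopoietic stem cells and natural killer cells, fell by 0.76 ± 0.21 and 0.83 ± 0.20, and *Eltd1* fell by 0.42 ± 0.12 in MUT. Between Veh_WT and Sud_MUT, 1 of 17 rose (*Gpr126*) and 6 fell, below the 50.2% of all genes called, and those that fell included *Gpr128* (−0.80 ± 0.35) and *Gpr133* (−0.73, FDR = 0.0926). *Gpr133* also had a mean under 1 CPM, at 0.415 CPM over the 20 mice, and its call sat near the threshold. *Gpr97*, *Celsr1*, *Gpr116*, *Gpr124*, *Gpr125*, *Lphn1* and *Lphn2* were not called in any of the 5 comparisons. The median change of the family was between −0.31 and −0.09 over the 5 comparisons, beside −0.03 to 0.00 for all genes.

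**Figure D5:**
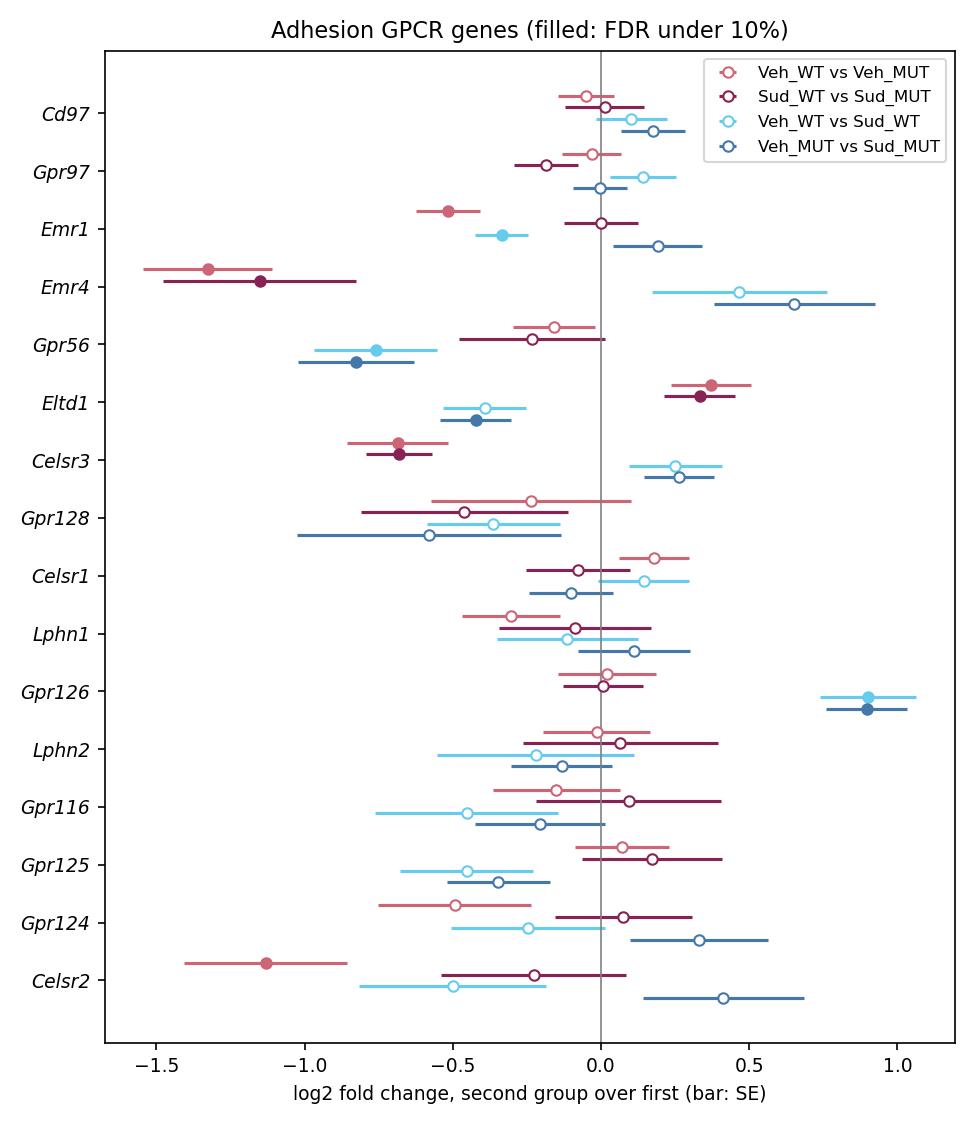
Log2 fold change (second group over first, bars SE) of adhesion GPCR genes with a mean of at least 1 CPM, ordered from the highest level per kb at the top, in the 2 genotype and 2 drug comparisons; filled points have an edgeR FDR under 10%. *Emr4* (−1.33 and −1.15) lies furthest left with genotype among the genes drawn, and *Gpr126* (0.90 and 0.90) furthest right with the drug.

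Among 9 genes of CD97 ligands and partners, 3 fell between Veh_WT and Veh_MUT and 4 between Sud_WT and Sud_MUT, and 2 rose between Veh_MUT and Sud_MUT. Of all genes, 39.5%, 36.8% and 10.8% were called in these comparisons, so that the genotype counts are near the background. *Cd55* had 68.2 CPM ± 10.6 in Veh_WT and 90.9 CPM ± 15.5 in Sud_WT mice (SD, n = 5; 0.39 ± 0.13 on the log2 scale, FDR = 0.175), and it fell by 0.46 ± 0.14 between Sud_WT and Sud_MUT (FDR = 0.0303). *Itga5*, the integrin chain α5, fell by 0.78 ± 0.12 between Veh_WT and Veh_MUT (FDR = 0.000517) and rose by 0.67 ± 0.12 between Veh_MUT and Sud_MUT (FDR = 0.0109). *Itgav* followed at a smaller size, falling by 0.19 ± 0.08 and rising by 0.19 ± 0.06, and *Itgb1* fell by 0.22 ± 0.09 under vehicle. *Thy1*, *Itgb3* and *Cd81* fell between Sud_WT and Sud_MUT, by 0.71 ± 0.22, 0.49 ± 0.19 and 0.25 ± 0.06, and *Cd151* and *Cd9* were not called anywhere. Between Veh_WT and Sud_WT 0 of 9 were called, where 3.07% of all genes were. Between Veh_WT and Sud_MUT *Thy1* alone fell, by 0.34 ± 0.14, where 50.2% of all genes were called.

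Among 10 chemoattractant receptors, 2 rose and 3 fell between Veh_WT and Veh_MUT, and 3 rose and 1 fell between Sud_WT and Sud_MUT, near the 39.5% and 36.8% of all genes called. *Ccr1*, a receptor for inflammatory chemokines, rose in both, by 0.28 ± 0.08 and 0.37 ± 0.11. *Fpr1*, the formyl peptide receptor, rose by 0.52 ± 0.11 under vehicle, and *Ccr2* and *P2ry2* (0.23 ± 0.08) rose under the drug. *C5ar1*, the complement C5a receptor, fell in both, by 0.65 ± 0.15 and 0.59 ± 0.11, and *C3ar1* and *Cx3cr1* fell under vehicle, the former by 0.50 ± 0.21.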

How the data were processed

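Ribosomal RNA-depleted, strand-marking paired-end libraries of 20 mice were sequenced with 126-base reads. Per the labels and the study's methods, the authors aligned reads with TopHat 2.0.8 to mm9 and deposited raw counts per Ensembl gene and per splice junction; the gene counter is not given in the sources used here. The members and gene lists were chosen with earlier results of these data known, so their tests are not independent support. Gene names came from GENCODE M1 (37205 of 37620 IDs matched), and sequences from the NCBI build 37 (mm9) genome.

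Genes were tested with edgeR 4.0.16 (R 4.3.3; quasi-likelihood, TMM, filterByExpr, robust, prior count 2) on the 10 mice of each comparison, and the genotype-by-drug term on all 20. Splice events (1 exon, 2 to 6 exons skipped together, or sites within 200 bases) with a mean of 10 reads, and 1 read of the rarer isoform, per mouse were tested with edgeR on inclusion and skipping reads, with a coefficient per mouse and the spread trended on the rarer isoform's reads. The negative binomial dispersion was left out of this test, and the quasi-likelihood spread alone was fitted. This form of the test was chosen in earlier work on these data, with its results known. The trend was chosen on simulated data. Retained introns and mutually exclusive exons were not analysed here. Benjamini-Hochberg FDR under 10%, and for events a change in Ψ over 1%, were called. Differences are the second minus the first group. Alternatives were DESeq2 1.42.0, limma 3.58.1 on Ψ, other filters and fits, a block on the mouse number and fits that lacked 1 mouse in turn. Named genes were those of the lists with a mean of at least 1 CPM, or called, by list; for each member the 3 genes with the highest r; and each called member event. Mice of the same genotype, in the vehicle and drug groups alike, may have shared a donor pool. Genotype and donor pool then cannot be told apart, and the tests took mice as independent. Intervals and depth cover counting error and the spread between mice only. Results for 1 gene of the adhesion GPCR family and for 1 signalling list are not reported here; counts and medians of the family are over all its tested genes.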

Additional observations from a re-analysis of the deposited data

Results flagged for a closer look

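In groups of 5 mice, a value was singled out where its distance to the nearest other mouse was over 0.71 of the group's whole range, a rule that chance meets in about 1 group in 20. Of 76 groups of values, 3 met it. Sud_WT mouse 9 had 517 CPM of *Cd97*, against 345 to 373 CPM in the other Sud_WT mice. The same mouse had 118 CPM of *Cd55*, the gene of a CD97 ligand, which was also apart from the other Sud_WT mice. Veh_MUT mouse 5 had 24.1 CPM of *Itga5*, above the other Veh_MUT mice. The test of the genotype-by-drug term called no member and no gene of the lists.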

How the results depend on the processing

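No value changed direction while called. *Cd97* was not called under any alternative, and the called falls of *Emr4* and of *Emr1* between Veh_WT and Veh_MUT kept their call under every alternative fitted. The fall of *Emr1* between Veh_WT and Sud_WT was not called in one model of 20 mice (−0.31) or without a filter on low counts (−0.34), and ranged from −0.37 to −0.27 with a mouse left out. Between Veh_WT and Sud_MUT it was not called without the filter (−0.30) and ranged from −0.46 to −0.24. *Emr4* between Veh_MUT and Sud_MUT was called (0.83) only without Veh_MUT mouse 5, in a range of 0.50 to 0.83.

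Genes called between Veh_WT and Sud_WT (453) were 811 with DESeq2, 1072 in one model of 20 mice and 191 to 730 with a mouse left out. Between Veh_MUT and Sud_MUT (1588) they were 788 in one model and 913 to 1736 with a mouse left out. For the genotype-by-drug term (2) they were 116 with DESeq2, 8 at a CPM of at least 1 in 5 mice, 10 without a filter and 2 to 87 with a mouse left out.

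Splice events called, in the order Veh_WT with Veh_MUT, Veh_WT with Sud_WT, Veh_MUT with Sud_MUT, Sud_WT with Sud_MUT and Veh_WT with Sud_MUT, were 0, 0, 0, 0 and 19 with an estimated dispersion, 79, 0, 0, 105 and 615 with limma on Ψ, and 529, 167, 235, 516 and 857 with annotated pairings only, an alternative chosen after seeing the data. One model of 20 mice gave 673 between Veh_WT and Sud_WT and 233 between Veh_MUT and Sud_MUT. With a mouse left out, 579 to 869 were called between Veh_WT and Veh_MUT (lowest without Veh_MUT mouse 11) and 564 to 947 between Sud_WT and Sud_MUT (lowest without Sud_MUT mouse 9). Of the members' events outside the variable exons of *Cd97*, 0 were called with an estimated dispersion; limma called 0 between Sud_WT and Sud_MUT, and one model, or annotated pairings only, called 1 between Veh_WT and Veh_MUT. With a mouse left out 0 to 1 were called in each of these comparisons.

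The replicate block could be fitted between groups that share mouse numbers. Deviations from group means of mice with equal numbers correlated at −0.111 to 0.211. Mice with unequal numbers were not set beside them, so whether the numbers pair the mice was not tested. With the block, 276 events were called between Veh_WT and Veh_MUT and 546 between Sud_WT and Sud_MUT, where 0 of the members' events were then called, against 1.

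The share of *Cd97* transcripts with exon 5 did not change its order of groups when read from the reads that enter the exon (18.1%, 28.0%, 40.2% and 45.2% in Veh_WT, Sud_WT, Veh_MUT and Sud_MUT mice), a measure added after seeing the data. Depth limits *Emr4*, of which 2 to 4 events had the reads to be tested, and the *Emr1* skipping junction, with 21 to 96 reads per mouse.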
